A study of Mus musculus with 8 samples.

Results

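Cdx1 and Cdx2 encode the caudal-type homeobox factors that specify the intestinal epithelium and keep it intestinal. They were examined in reduced representation bisulfite sequencing, a method that reads DNA methylation in CpG-rich fragments, of organoids grown from mouse proximal colon. Members were found by taking every listed 200 bp tile that overlapped the RefSeq span of either gene (GRCm38.p6) extended by 5 kb on both sides, in all 8 deposited tables. These are 2 of 21887 protein-coding genes in the annotation. Of the 53375 distinct tiles listed anywhere in the series, 8 lay in the Cdx1 window and 0 in the Cdx2 window.

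All organoids came from male mice about 40 days old that carried 1 Cre-activable BrafV600E allele, so the controls hold the silent allele too. The 8 libraries form 4 groups of 2, and each group holds organoid lines 1 and 3. In the first group lentiviral Cre had switched on BrafV600E, the constitutively active form of the kinase, and the organoids were cultured for 5 months before selection in Base medium, a medium without niche factors for stem cells. Its controls received the empty lentiviral vector (EV) and were kept for 5 months in full medium. The other groups were EV organoids in full medium after 12 months (line 1) or 14 months (line 3), and EV organoids in full medium after 2 months. Full medium contained Wnt3a, R-spondin, Noggin and EGF, and every library is labelled with a last culture of 3 weeks in its medium. Activation of the oncogene and the change of medium coincide in the first comparison and cannot be told apart, and Cre delivery coincides with both. The labels of 2 libraries conflict. The line 1 BrafV600E library names line 3 in its source field, and the library titled 14 months is tagged 2 months elsewhere, so titles were followed. Were the line 3 libraries of 14 and 2 months exchanged, every line 3 long-culture difference would change sign. Whether line numbers match between the BrafV600E and the long-culture comparisons cannot be told from the tables either.

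Each table compares 1 library with 1 library of the same line and is limited to tiles with a difference of 20 percentage points or more and a q-value no higher than 0.01. The tables hold between 3380 and 17860 tiles, with no read counts and no methylation levels, so the depth is unknown. A tile that is not listed may be unchanged or uncovered. No test of a condition was run: the tables hold only tiles already chosen for a large difference in a pair of libraries, and the smallest two-sided exact sign-test p over 2 lines is 0.5. The authors' q-values concern pairs of libraries and not conditions. Colon identity could not be checked from these tables, because they give differences and not levels.

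Cdx1 and Cdx2 are transcription factors with a shared homeodomain. Cdx2 establishes intestinal identity in the embryonic endoderm and represses stomach genes there, and both factors switch on enterocyte and goblet cell genes in the adult. Cdx1 responds to Wnt and retinoic acid signals and is abundant in colonic crypts. CpG methylation at a promoter is commonly found with a silent gene, although RNA was not measured in the data described here.

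With BrafV600E in Base medium, Cdx1 gained methylation in both lines, mainly around the annotated 5′ end of the gene. Cdx1 (gene ID 12590) spans bases 61018862 to 61036199 of chromosome 18. It is read on the reverse strand, a fact of the mouse annotation that the gene table used here does not give, so its 5′ end is the higher coordinate. Line 1 had 5 gaining and 0 losing tiles, and line 3 had 6 gaining and 1 losing tile in the authors' deposited tables. For scale, tiles in the gaining direction alone were found in 14.5% of all protein-coding genes in line 1 and 13.3% in line 3, and tiles in both directions in 10.1% in line 3. A gaining tile in each line was found in 12.6% of genes. At least 5 gaining tiles occurred in 1.88% of genes in line 1, at least 6 in 1.27% in line 3, and both together in 137 genes, which is 0.626%. Long genes have wider windows and more chances of a tile, and these shares were not adjusted for length.

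**Figure D1:**
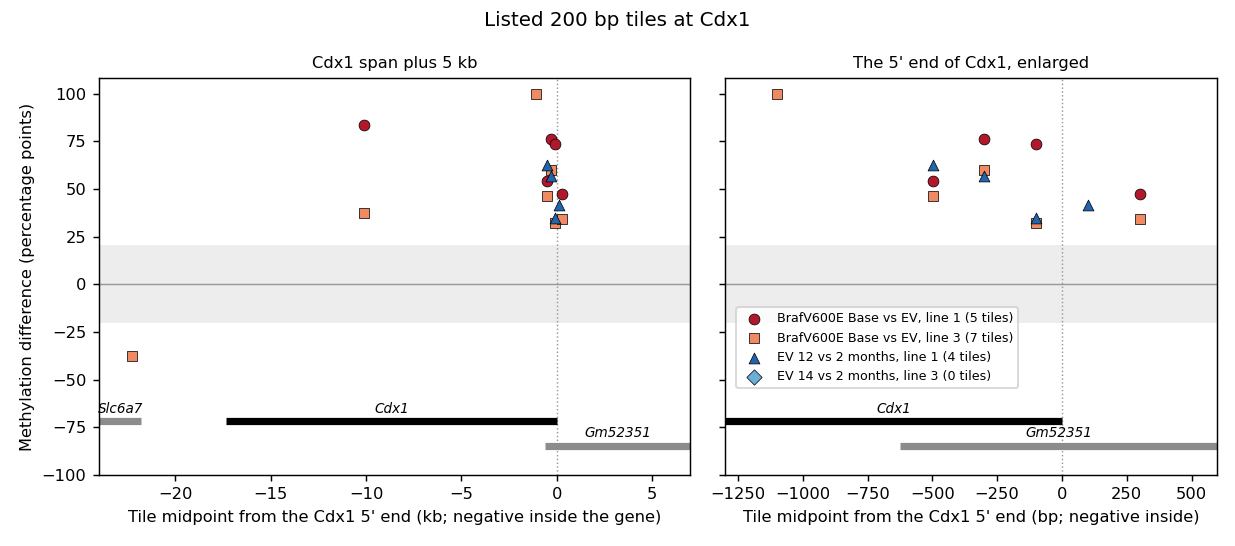
Methylation difference in percentage points (y axis) of each listed 200 bp tile in the Cdx1 window against the distance of its midpoint from the Cdx1 5′ end (x axis, kb on the left and bp in the enlargement on the right); colour and shape give the comparison and line, bars show gene spans, and the grey band marks differences under 20 points, which the tables leave out. Tiles cluster at the 5′ end, where 12 of 12 listed values with a midpoint within 1 kb are gains, and the line 3 long-culture comparison has 0 tiles.

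The tile over the 5′ end itself, bases 61036001 to 61036200, gained 73.5 points in line 1 and 32.2 points in line 3 in the authors' deposited tables. Its neighbour just inside the gene, 61035801 to 61036000, gained 76.5 points in line 1 and 59.8 points in line 3, per the authors' deposited tables, and carried the smallest q-value of the Cdx1 tiles in each line (3.39e-64 and 6.88e-42). The next tile inward, 61035601 to 61035800, gained 53.9 and 46.1 points for line 1 and line 3, by the authors' deposited tables. Upstream of the gene, the tile 61036401 to 61036600 gained 47.3 and 34.3 points in the same order in the authors' deposited tables. These 4 tiles form 1 block that gained in both lines, interrupted at 61036201 to 61036400, which neither BrafV600E table lists.

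A difference sets limits on the levels behind it, because a level lies between 0% and 100%. The gain of 76.5 points in the authors' deposited table requires at least 76.5% methylation at that tile in the line 1 BrafV600E library and at most 23.5% in its EV control. At the same tile in line 3, the limits are at least 59.8% with BrafV600E and at most 40.2% in EV, from the authors' deposited table. The tile over the 5′ end was at most 26.5% methylated in the EV library of line 1, and only at most 67.8% in that of line 3. In line 1 the block therefore held tiles that were mostly unmethylated in EV organoids and mostly methylated in BrafV600E organoids.

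Cdx1 also gained away from its 5′ end. A tile deep in the gene, 61026001 to 61026200, which begins 9999 bp from the 5′ end, gained 83.7 points in line 1 and 37.1 points in line 3 in the authors' deposited tables. It overlaps no other annotated gene, and whether it is exonic or intronic was not determined here, because the gene table has no exons. The tile 61035001 to 61035200, also within Cdx1 alone, gained 100 points in line 3, by the authors' deposited table. This places it at 100% in the BrafV600E library and 0% in the EV library. Its read depth is unknown, so these levels may rest on few reads, and line 1 does not list the tile. The only losing tile, 61013801 to 61014000, fell by 37.6 points in line 3 per the authors' deposited table. It lies outside Cdx1 and inside Slc6a7, which encodes a proline transporter.

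The tiles of the 5′ block also lie within Gm52351, a predicted protein-coding gene spanning 61035576 to 61044713, so the gain there cannot be assigned to either gene by position. The 2 tiles inside Cdx1 alone are free of this overlap, and 1 of them was listed in both lines. The next gene on that side is Pdgfrb, a growth factor receptor gene, which begins at 61045127.

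The lines had the same direction at Cdx1 but not the same size of gain. All 5 tiles listed in both lines gained in both, where 73.9% of the 5934 tiles listed in both BrafV600E comparisons shared a direction. The gain was larger in line 1 at 5 of 5 tiles, by a mean of 25.1 points. Over the 2994 tiles of the series that gained in both lines, line 1 had the larger gain at 54.0%, and the median difference, line 1 minus line 3, was 1.84 points. Neighbouring tiles share fragments and cells, so the 5 tiles are not independent.

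Averaged over its gaining tiles, Cdx1 gained 67.0 points in line 1 and 51.6 points in line 3, computed from the authors' deposited tables. Among the 1165 genes with at least 3 gaining tiles in line 1, 6.35% had a mean gain at least as large as that of Cdx1, and among 1265 such genes in line 3 the share was 33.8%. Line 1 thus placed Cdx1 near the upper end of genes with several gaining tiles, while in line 3 its mean gain was closer to the middle. The median gain over Cdx1 tiles was 73.5 points for line 1 and 41.6 for line 3, where 1 tile at 100 points raises the mean. Over all tiles, the median listed gain was 42.8 points for line 1 and 44.1 for line 3, by the authors' deposited tables, so the Cdx1 median was above that of all tiles in line 1 and below it in line 3.

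**Figure D2:**
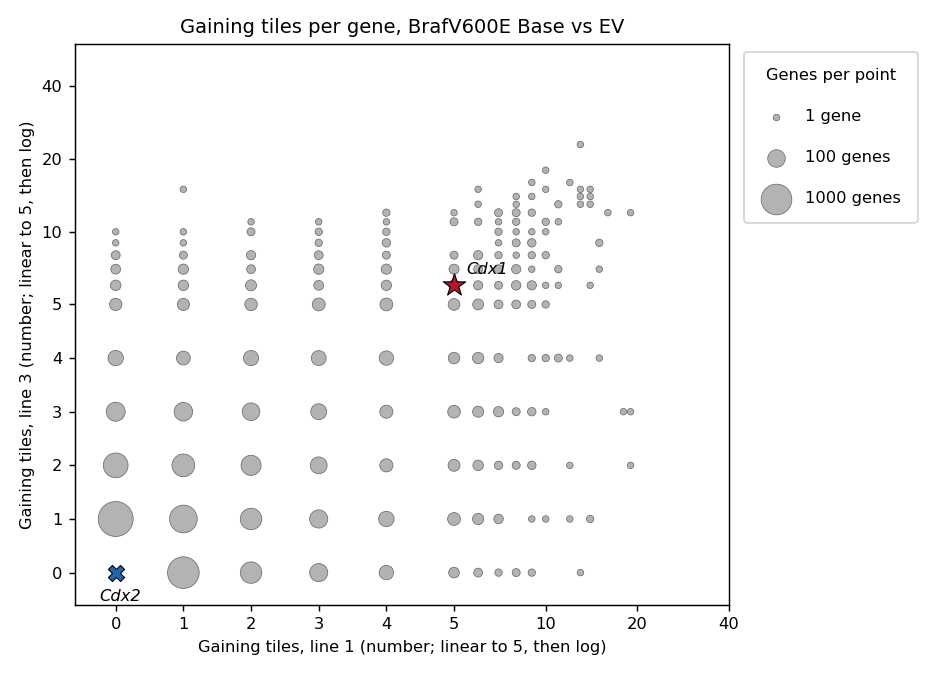
Number of gaining tiles per gene within its span plus 5 kb in the BrafV600E comparison of line 1 (x axis) and line 3 (y axis), both linear to 5 and logarithmic above; the area of a grey point grows with the number of genes there, and genes with 0 gaining tiles in both lines are not drawn except Cdx2. Cdx1 (star) lies at 5 and 6 tiles, and Cdx2 (cross) at 0 in both.

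Long culture without the oncogene gave gains at the Cdx1 5′ end in line 1 and no listed tile in line 3. After 12 months against 2 months, line 1 had 4 gaining and 0 losing tiles in the authors' deposited tables. Gains alone were found in 6.28% of all genes in that comparison, and at least 4 gaining tiles in 0.694%. In line 3, after 14 months against 2 months, Cdx1 had 0 tiles, although that comparison lists more gains in all, 15485 tiles against 3380 in line 1, and 16.1% of genes there had gains alone.

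From inside the gene outward, the 4 line 1 tiles gained 62.5, 57.0, 34.6 and 41.6 points in the authors' deposited table, at consecutive positions from 61035601 to 61036400. The first 3 are tiles of the block that also gained with BrafV600E, and the last, 61036201 to 61036400, is the tile that both BrafV600E tables leave unlisted. Its gain of 41.6 points had the smallest q-value of the 4, 4.20e-35, in the authors' deposited table. The tile next to the 5′ end on the inner side was at least 57.0% methylated at 12 months and at most 43.0% at 2 months, from the same difference. Of the 309 genes with at least 3 gaining tiles in that comparison, 21.7% had a mean gain at least as large as the 48.9 points of Cdx1, computed from the authors' deposited table.

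The gains of both comparisons in line 1 can be set side by side, since they share no library. At 61035601 to 61035800 the authors' deposited tables give 53.9 points with BrafV600E and 62.5 points with 12 months of culture. At 61035801 to 61036000 they give 76.5 points with BrafV600E and 57.0 points with long culture, and at 61036001 to 61036200 they give 73.5 and 34.6 points. The gain with BrafV600E in line 1 was the larger at 2 of these 3 tiles, by a mean of 16.6 points over the 3. Set against the BrafV600E gains of line 3 at the same tiles, the order turned: BrafV600E in line 3 was the larger at 1 of 3, with a mean difference of -5.32 points. All 3 tiles gained in each of these comparisons. Of the 2384 tiles of the series listed in both line 1 comparisons, 48.9% shared a direction. For BrafV600E in line 3 with long culture in line 1, the share was 71.2% of 3268 tiles. The 3 tiles are neighbours and not independent. The tiles inside Cdx1 alone, which gained with BrafV600E, were not listed with long culture in either line.

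Of the 1087 genes with a gaining tile in both BrafV600E comparisons and in the line 1 long-culture comparison, 88.4% also had a gaining tile in line 3 after 14 months, and 74 genes, 6.81%, had 0 listed tiles there. Cdx1 is 1 of those 74 genes. With the 2 line 3 libraries exchanged, an alternative added after the values were seen, 41.7% of the 1087 genes would have a gaining tile there, and the 74 genes would be the same by construction. Whether its tiles were covered in the 2 line 3 libraries of that comparison cannot be read from the tables, and one of these libraries has the conflicting culture time.

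A search for genes with the same pattern in all 4 comparisons, with equal directions and at least 3 tiles wherever Cdx1 had 3, found 0 genes in windows of 5 kb and 0 in windows of 1 kb. Under a looser rule chosen after the values were seen, with at least 1 gaining tile in the same 3 comparisons and none in the line 3 long-culture tables, 72 genes remained once those sharing a Cdx1 tile were left out. None of the 72 had more than 2 gaining tiles in every one of the 3 comparisons. The nearest by Euclidean distance between their 3 mean gains and those of Cdx1 were Uvssa and Maea, at 12.2 points on tiles of equal values, then Lpo at 15.0, Zadh2 at 15.3 and Msi2 at 15.6 points. Lpo, which encodes lactoperoxidase, had 1 gaining tile in line 1 and 3 in line 3 with BrafV600E, and 2 with long culture in line 1 of the authors' deposited tables. The distance uses gaining tiles alone: Lpo also had 1 losing tile in line 1 with BrafV600E, where Cdx1 had 0, and Msi2 had 3 there, 1 in line 3 and 1 with long culture in line 1.

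Cdx2 had 0 listed tiles, gaining or losing, in every one of the 4 comparisons. Cdx2 (gene ID 12591) spans bases 147300900 to 147307249 of chromosome 5, so its window runs from 147295900 to 147312249. Of all protein-coding genes, 50.3% had no listed tile in any table within such a window. The BrafV600E comparison alone leaves 57.4% of genes without a tile, and long culture 65.1%. No difference of 20 points or more was therefore listed at Cdx2, and smaller differences or uncovered tiles cannot be told apart from no change.

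The promoter sequences of Cdx2 and of its neighbour Pdx1 are shown to compare a start site with no listed tile and one that carries a tile. Both windows run from 250 bases before to 50 bases after the annotated start, from RefSeq on GRCm38.p6, with every CG in capitals. The Cdx2 window is chr5:147307200-147307499 on the reverse strand and the Pdx1 window is chr5:147269847-147270146 on the forward strand.
Cdx2: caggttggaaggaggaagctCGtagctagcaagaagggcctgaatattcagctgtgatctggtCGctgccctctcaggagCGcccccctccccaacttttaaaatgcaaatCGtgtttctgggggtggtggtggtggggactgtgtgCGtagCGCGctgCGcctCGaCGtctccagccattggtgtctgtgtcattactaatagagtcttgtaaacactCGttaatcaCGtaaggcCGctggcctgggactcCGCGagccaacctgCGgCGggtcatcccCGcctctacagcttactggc
Pdx1: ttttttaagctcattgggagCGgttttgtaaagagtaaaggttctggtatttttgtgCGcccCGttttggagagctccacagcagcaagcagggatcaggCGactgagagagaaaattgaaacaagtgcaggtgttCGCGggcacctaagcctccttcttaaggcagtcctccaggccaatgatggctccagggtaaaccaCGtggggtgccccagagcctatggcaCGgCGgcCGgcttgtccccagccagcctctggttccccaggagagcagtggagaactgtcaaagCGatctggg

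The Cdx2 window holds 18 such dinucleotides and the Pdx1 window 11, against a median of 7 over 32851 promoter windows, and 29.7% of windows held at least as many as Cdx2. The motif CCGG, at which reduced representation libraries are usually cut, reads the same on both strands and holds 1 of the dinucleotides. That motif occurs 0 times in the Cdx2 window and 1 time in the Pdx1 window, and 52.8% of all windows hold it. A listed tile from any table overlapped 18.5% of the windows with this motif and 1.55% of those without it. Among the 559 windows that lacked the motif but had at least 18 of the dinucleotides, 56 were overlapped by a listed tile, which is 10%, beside 10.5% of all windows. The Cdx2 start therefore had many CpG sites but no site of that motif within these 300 bases, and fragments cut farther out were not examined.

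**Figure D3:**
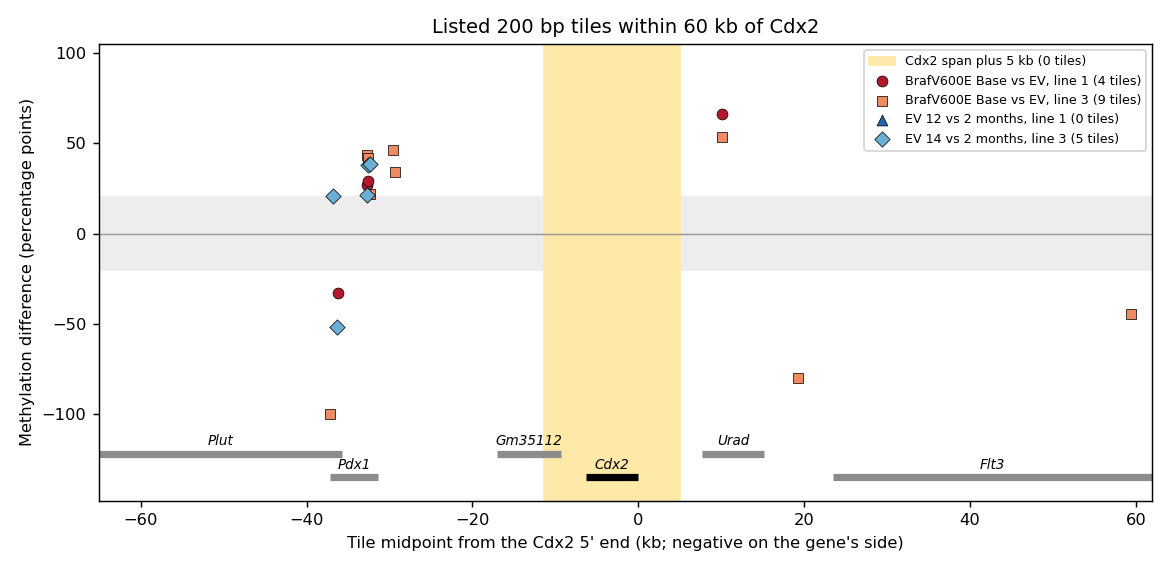
Methylation difference in percentage points (y axis) of each listed 200 bp tile within 60 kb of Cdx2 against the distance of its midpoint from the Cdx2 5′ end in kb (x axis); colour and shape give the comparison and line, bars show gene spans, yellow marks the Cdx2 span plus 5 kb, and the grey band marks differences under 20 points. The yellow window is empty, with gains at Urad and 2 line 3 losses beyond them on one side, and gains and losses at Pdx1 on the other.

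The nearest tiles lay on either side of Cdx2 with BrafV600E. On the 5′ side, the tile 147317201 to 147317400 in Urad, a gene of urate breakdown, lies 9.95 kb from Cdx2 and gained 66.0 points in line 1 and 53.7 points in line 3 in the authors' deposited tables. On the other side, the tiles from 147277601 to 147278000, which overlap no annotated gene, gained 46.3 and 34.0 points in line 3, by the authors' deposited table, and the nearer lies 22.9 kb away. Long culture listed 0 tiles within 60 kb of Cdx2 in line 1 and 5 in line 3, all of them at Pdx1.

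Pdx1, a homeobox gene of the same ParaHox cluster that specifies pancreas and duodenum, had tiles of both directions. Near its end farthest from the start, the tile 147274601 to 147274800 gained 29.1 points in line 1 and 41.7 points in line 3 with BrafV600E, and 37.9 points in line 3 with long culture, in the authors' deposited tables. The tile across its start, 147270001 to 147270200, fell by 100 points in line 3 with BrafV600E per the authors' deposited table, and no other table lists it. That tile also overlaps Plut, a neighbouring transcript gene. Farther inside, 147271001 to 147271200 fell by 32.8 points in line 1 with BrafV600E, and 147270801 to 147271000 fell by 52.0 points in line 3 with long culture, by the authors' deposited tables. Pdx1 thus held losing tiles toward its start and gaining tiles toward its far end in both BrafV600E comparisons, while Cdx2 had no listed tile.

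Over the 6 genes of the ParaHox and Cdx family, gains alone were found at 1 gene with BrafV600E, losses alone at 0, both directions at 4 and no tile at 1, which is Cdx2. The 4 genes with both directions include Cdx1, whose only losing tile lies inside Slc6a7 and outside Cdx1. Without a flank, Cdx1 had 9 gaining and 0 losing tiles. Gains alone were found in 14.6% of all protein-coding genes by the same rule over both lines, losses alone in 12.1% and both in 16%. The gene with gains alone was Cdx4, the third caudal gene, which sits on chromosome X and had 1 tile at 71.6 points in line 3, by the authors' deposited table. Gsx1 and Gsx2, homeobox genes of the developing nervous system, had both directions. With long culture, 2 of the 6 had gains alone (Cdx1 and Gsx2), 0 losses alone, 2 both and 2 none, beside 13.3%, 10.3% and 11.4% of all genes for gains, losses and both. Gsx2 had 4 gaining tiles with a mean of 36.1 points in line 3, by the authors' deposited table.

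The next list held 22 transcription factors that work beside Cdx factors in the gut. With BrafV600E 4 had gains alone, 1 losses alone, 13 both directions and 4 no tile. Over all protein-coding genes the shares were 14.6%, 12.1%, 16% and 57.4% in that order, not adjusted for gene length. The median of the genes' mean differences was 30.3 points, beside 7.45 points over all genes with a tile, computed from the authors' deposited tables. Atoh1, which directs cells to the secretory lineage, had 3 gaining tiles in each line with means of 46.3 and 46.5 points for line 1 and line 3, by the authors' deposited tables. Klf5, a factor of proliferating crypt cells, gained 37.1 points in line 1 and 69.2 points in line 3 at 1 tile per line, by the authors' deposited tables.

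With long culture 8 of these 22 factors had gains alone, 2 losses alone, 5 both and 7 none. Over all protein-coding genes the shares were 13.3%, 10.3%, 11.4% and 65.1% in that order. The median was 36.7 points, beside 17.5 points over all genes with a tile. Gata5 and Gata6 encode zinc finger factors of the endoderm. Gata5 had 4 gaining tiles in line 1, averaging 38.9 points, and 5 in line 3, averaging 62.9 points, by the authors' deposited tables. Gata6 had 5 gaining tiles in line 1, averaging 63.3 points, and 2 in line 3, averaging 25.0 points, by the authors' deposited tables. Atoh1 gained 39.4 and 33.1 points at 1 tile per line, by the authors' deposited tables. Tcf7l2, a DNA-binding partner of β-catenin in Wnt signalling, lost methylation, with means of -26.7 points in line 1 and -44.0 points in line 3, by the authors' deposited tables.

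Of 20 epithelial genes that Cdx factors bind or activate, 13 had no listed tile in the BrafV600E comparison, where 57.4% of all genes had none. Gains alone were found at 5, losses alone at 0 and both directions at 2, beside 14.6%, 12.1% and 16% of all genes. The 2 with both directions were Muc2 and Vdr, named after their values were seen. Muc2 had 1 losing tile in line 1 at -28.6 points, by the authors' deposited tables. In line 3 Muc2 had 1 gaining and 5 losing tiles, averaging -45.2 points. Vdr had mean differences of 77.4 points in line 1 and 7.49 points in line 3. The median of the mean differences of the 7 genes with a tile was 53.2 points, beside 7.45 points over all genes with one. Cdh1, which encodes E-cadherin, had 1 gaining tile in line 1 at 56.8 points and 4 in line 3 averaging 52.3 points, by the authors' deposited tables. Gpa33, an intestinal surface antigen gene, gained 50.3 and 84.1 points, and Lgals4, which encodes the gut lectin galectin-4, gained 100 and 48.2 points for line 1 and line 3, by the authors' deposited tables. With long culture 4 of the 20 had gains alone, 2 losses alone, 1 both and 13 none. The shares over all genes were 13.3%, 10.3%, 11.4% and 65.1% in that order. The median was 31.8 points, beside 17.5 points over all genes with a tile. None of the 20 had tiles of a single direction in both lines.

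Of 18 genes listed as gastric and foregut genes, 6 had losses alone with BrafV600E, 3 gains alone, 4 both directions and 5 no tile. Over all genes the shares were 12.1%, 14.6%, 16% and 57.4% in that order. The median of the listed genes' mean differences was 2.65 points, beside 7.45 points over all genes with a tile. Whether Cdx2 represses each listed gene was not examined here. Tff1 and Tff2, trefoil peptide genes of the stomach, had only losing tiles within the span plus 5 kb in both lines. The Tff2 tile, 31137401 to 31137600 in both lines, lies in the flank, outside Tff2, which begins at 31141062. The Tff1 tile 31162601 to 31162800, listed in both lines, lies inside Tff1. The second Tff1 tile of line 3, 31158201 to 31158400, lies outside Tff1. Tff1 had 1 tile at -62.5 points in line 1 and 2 averaging -48.3 points in line 3, and Tff2 had 1 tile at -29.6 points in line 1 and 1 at -66.1 points in line 3, by the authors' deposited tables. The other losses were at Muc5ac, Gkn2, Gkn3 and Ctse, each 1 tile in line 3 alone, named after their values were seen. Gkn2 and Gkn3 share 1 tile, at -21.2 points in the authors' deposited table, so it counts for both genes. That tile lies inside Gkn3 and outside Gkn2. Line 3 lists 17860 losing tiles with BrafV600E and line 1 lists 4973. The list also held 2 genes with gains alone in both lines. Sox2, the foregut identity factor, had 3 gaining tiles in line 1 averaging 47.4 points and 5 in line 3 averaging 36.3 points, by the authors' deposited tables. Nkx6-3, a gastric antrum factor, had 2 in line 1 averaging 64.2 points and 5 in line 3 averaging 58.8 points, by the authors' deposited tables.

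With long culture 5 of these 18 genes had gains alone, 1 losses alone, 3 both and 9 none. Over all genes the shares were 13.3%, 10.3%, 11.4% and 65.1% in that order. The median was 37.9 points, beside 17.5 points over all genes with a tile. Sox2 had 1 gaining tile in line 1 at 55.9 points and 9 in line 3 averaging 58.7 points, by the authors' deposited tables. Aqp5, a water channel gene, had 2 in line 1 averaging 38.4 points and 5 in line 3 averaging 37.7 points, by the authors' deposited tables. The counts of these lists describe these libraries, since each rests on 2 lines and no test was run over a list.

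**Figure D4:**
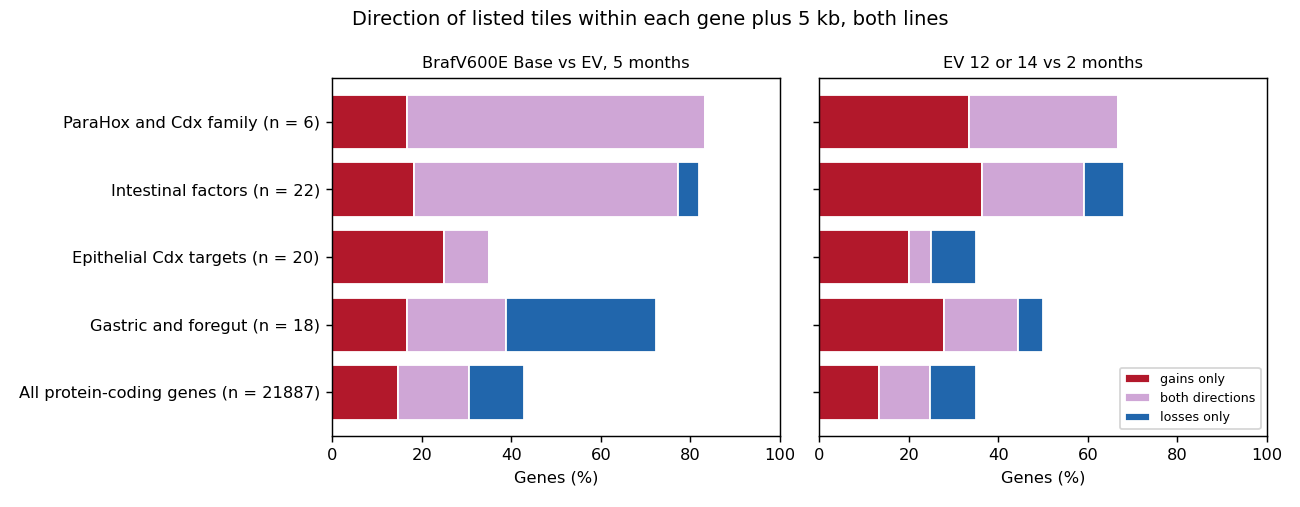
Share of genes in percent (x axis) with listed tiles in the gaining direction alone, in both directions or in the losing direction alone within the gene span plus 5 kb over both lines, for 4 gene lists and all 21887 protein-coding genes, with BrafV600E on the left and long culture on the right; the rest of each bar to 100% is genes with no listed tile. The share with losses alone with BrafV600E is 6 of 18 for the gastric and foregut genes and 0 of 20 for the epithelial Cdx targets, beside 12.1% of all genes; 4 of the 6 rest on line 3 alone, and 2 of those share a tile.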

How the data were processed

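Genomic DNA of 8 organoid libraries was profiled by reduced representation bisulfite sequencing with 50 bp single-end reads, as the labels state. The submitters' processing notes name methylKit 1.7.4, Bismark 0.14.3, Trim Galore 0.4.4, FastQC 0.11.7 and build GRCm38 (mm10), without their settings; a coverage minimum is not given in the sources used here. For every listed tile of 200 bp the authors deposited, per the file headers, the p-value and q-value and the difference in methylation (percentage points, first library minus second), with gains and losses in separate tables. No read counts were used, so the depth is unknown and no interval could be given.

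Tiles were assigned to genes by overlap with the GRCm38.p6 RefSeq span plus 5 kb, in Python 3.11.15 with pandas 2.3.3 and numpy 2.4.6; the overlap step was tested on simulated data with 200 genes. A gene had gains alone if at least 1 tile gained and 0 lost over the lines considered. All 66 list genes matched. The members and gene lists were chosen with earlier results of these data known. List genes were named if both lines had tiles of a single direction only, up to 4 per list and comparison, by tile number and then mean difference; single results of 2 list genes are not reported here. Promoters came from RefSeq, without chromosome 18. Alternatives were other windows, stricter limits and leaving out a line.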

Additional observations from a re-analysis of the deposited data

Results flagged for a closer look

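In 5 of the list genes reported here the lines had tiles in opposite directions under the same comparison, a difference that was not tested because each line is 1 pair of libraries. With BrafV600E, Klf4 had -22.8 and 34.4 points in lines 1 and 3, a difference of -57.2 points, at 1 tile that both authors' deposited tables list. Gsx1, the ParaHox neighbour of Pdx1, had 4 tiles averaging 47.0 points in line 1 and 5 averaging -29.3 points in line 3, a difference of 76.3 points, with 0 tiles listed in both of the authors' deposited tables. With long culture, Prox1 had -51.1 points and 38.4 points (difference -89.5), Foxa2 -32.5 and 45.4 points (difference -78.0) and Lef1 -31.1 and 54.6 points (difference -85.7) for line 1 and line 3, by the authors' deposited tables. Prox1 had 1 tile in line 1 and 9 in line 3, with 0 listed in both. Foxa2 had 3 and 3 with 2 in both, and Lef1 had 2 and 8 with 1 in both. The values at Prox1 and Lef1 thus come mostly from different tiles in the 2 lines. Of all protein-coding genes, 3.65% had gains alone in one line and losses alone in the other with BrafV600E, and 3.39% with long culture. Cdx1 and Cdx2 are not among these genes.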

How the results depend on the processing

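Of 125 recomputed values, 102 stayed close to those reported (counts within 1.5 times, means within 1 SD), 23 moved and 0 reversed. Only a mean could be called reversed, since a count has no sign. Counts reported as 0 could only stay at 0 under stricter limits, smaller windows or with a line left out. The SD for the Cdx1 mean with BrafV600E was that of the same 2 line means, so leaving out a line could not move it. The 102 values therefore include some whose outcome was fixed. The cause of a move was not tested except where stated. Cdx1 kept a majority of gaining tiles under every window and threshold tried. Its losing tiles with BrafV600E numbered 0 without a flank, with 1 kb and at 40 points, and 3 with 10 kb, against 1 as reported. Cdx2 had 2 gaining tiles with BrafV600E with 10 kb, the Urad tile of line 1 (66.0 points) and of line 3 (53.7 points), and 0 under the other settings. Genes with gains alone with BrafV600E in the ParaHox and Cdx family numbered 2 with no flank, 1 kb or 10 kb and 3 at 40 points, against 1. The 2 genes were not the same throughout. Cdx1 counted with no flank or 1 kb, where it had 0 losing tiles. With 10 kb Cdx1 did not count and Cdx2 did. At 40 points the intestinal factors had 7 against 4 and the gastric and foregut genes 5 against 3. With q under 0.001 the epithelial genes had 3 against 5 with BrafV600E and 2 against 4 with long culture.

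Leaving out 1 line gave 5 to 6 gaining and 0 to 1 losing Cdx1 tiles with BrafV600E (means 38.8 to 67.0 points), and 0 to 4 gaining tiles with long culture, where the gain rests on line 1 alone. With BrafV600E the lists had 1 to 3 (ParaHox and Cdx family), 5 to 9 (intestinal factors), 4 to 5 (epithelial) and 2 to 7 genes (gastric and foregut) with gains alone; with long culture 1 to 2, 6 to 12, 0 to 4 and 3 to 6. No paired analysis was possible because no result comes from a test: each deposited table is already a comparison within 1 line.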

Other observations

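At tiles of the whole series listed in a BrafV600E and a long-culture comparison, the direction was shared at 48.9% of 2384 tiles within line 1 and 51.9% of 6964 tiles within line 3. Across lines it was shared at 80.4% of 5432 tiles (BrafV600E line 1 with long culture line 3) and at 71.2% of 3268 tiles (BrafV600E line 3 with long culture line 1). No library is used in more than 1 comparison. The 3 Cdx1 tiles shared within line 1, and the 3 shared by BrafV600E line 3 with long culture line 1, all had 1 direction, gain. The source field of the line 1 BrafV600E library names line 3. Whether the line numbers of the BrafV600E and long-culture comparisons refer to the same lines was not tested, and each value set across them within a line depends on it.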
